A study of Mus musculus with 20 samples.

Results

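Lipid-associated macrophages are tissue macrophages that take up and break down lipid, and 10 genes of their programme and of the macrophage lysosome were followed here: Trem2, Gpnmb, Lgals3, Spp1, Cd9, Cd68, Lyz2, Ctsd, Lpl and Msr1. They were chosen by symbol, and all 10 were present among the 24968 gene symbols used from each of the 2 expression tables. The study sequenced RNA from 20 mouse libraries around HMGB1, a nuclear protein released from stressed cells, and RAGE, a receptor for it that is encoded by Ager. The RAW264.7 groups, a mouse macrophage-like line labelled WT and male, were treated for 6 hours with [O] HMGB1 joined with IL1β (the complex, n = 3) or with the carrier protein BSA alone (n = 3). The groups of total liver, all labelled male, were WT on alcohol diet (n = 4), WT on control diet (n = 4), RageΔMye on alcohol diet (n = 3) and RageΔMye on control diet (n = 3), each after 6 weeks of feeding. The labels do not spell out the RageΔMye allele, its Cre driver or the ages of the mice.

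In mouse liver, resident macrophages (Kupffer cells) and recruited monocytes can take on the lipid-associated state. TREM2 is a surface receptor for lipids and lipoproteins that signals through the adaptor TYROBP, and it is needed in several mouse tissues for the full programme, which includes GPNMB, galectin-3, osteopontin and CD9. Lipid brought in by scavenger receptors and lipoprotein lipase is broken down in lysosomes, whose genes carry binding motifs for the transcription factors TFEB and TFE3.

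The libraries differed in kind, which touches every result below. The 6 RageΔMye and 6 RAW264.7 libraries had 57.8 to 63.7% and 72.5 to 76.2% of their TPM, a length-scaled share of all transcripts, on genes that share exon sequence with a gene on the opposite strand, against 15.4 to 18.3% in the 8 WT liver libraries. They also listed fewer genes above 0 TPM, 7592 to 8499 in RageΔMye liver and 8629 to 9229 in RAW264.7, against 15109 to 15595 in WT liver. The most frequent TPM above 0 in a library was 14.4 to 20.5 in RageΔMye liver, 9.85 to 13.4 in RAW264.7 and 0.0576 to 0.0835 in WT liver. Values near these levels may rest on very few reads, which TPM does not show. Ager, the gene that the genotype names, was at 93.1 to 166 TPM in the RageΔMye alcohol libraries, 101 to 128 TPM in the RageΔMye control libraries, and below 0.5 TPM in the WT libraries. Cells outside the myeloid lineage keep the gene, so total liver does not check the deletion itself. The level was higher in the libraries labelled with the deletion than in WT. Whether this comes from the kind of library or from the label was not tested. RageΔMye therefore stands below for the libraries labelled so. Xist, transcribed from the inactive X chromosome of females, was at 17.8 to 27.3 TPM in WT alcohol libraries and 0.00165 to 0.135 TPM in WT control libraries, and summed Y-linked transcripts were at 0 to 0.0161 TPM in WT alcohol libraries and 11.3 to 16.6 TPM in WT control libraries. In RageΔMye livers the Y-linked sums were at 0.276 to 1.74 TPM in alcohol libraries and 3.16 to 4.5 TPM in control libraries, also without overlap, and Xist was at 0.322 to 0.99 TPM in alcohol libraries and 0 to 3.1 TPM in control libraries. All mice were labelled male, but WT alcohol livers had the sex-linked transcripts of females and WT control livers those of males. In WT liver diet therefore cannot be told apart from sex as read from these transcripts. In RageΔMye liver diet cannot be told apart from Y-linked transcripts. Below, 'rose', 'fell' and 'alcohol effect' name differences between diet groups, whose cause was not tested. Markers of the labelled sources were present: hepatocyte markers summed to 39488 TPM or more in every liver library and were at 0 in RAW264.7, where 4 of 15 general macrophage markers (Fcgr1, C1qa, C1qb and C1qc) were also listed at 0 in all 6 libraries.

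Cathepsin D, encoded by Ctsd, was the 1 gene of the 10 with the palindrome TCACGTGA, an E-box form found in many lysosomal promoters, among the 8 that had a promoter sequence in RefSeq (GRCm38.p6). The search covered the 250 bases before each annotated start on both strands, where 0.785% of 32851 promoters held a match. Of 30 genes with a promoter sequence in a list of other lysosomal genes, 3 held it: Ctsa (cathepsin A), Gla (alpha-galactosidase A) and Mcoln1 (the calcium channel mucolipin-1). All 4 promoters are shown because their values are set side by side further on, with each match in capitals. They lie at chr7:142387828-142388077 on the minus strand (Ctsd), chr2:164833523-164833772 on the plus strand (Ctsa), chrX:134601006-134601255 on the minus strand (Gla) and chr8:3500269-3500518 on the plus strand (Mcoln1).
Ctsd: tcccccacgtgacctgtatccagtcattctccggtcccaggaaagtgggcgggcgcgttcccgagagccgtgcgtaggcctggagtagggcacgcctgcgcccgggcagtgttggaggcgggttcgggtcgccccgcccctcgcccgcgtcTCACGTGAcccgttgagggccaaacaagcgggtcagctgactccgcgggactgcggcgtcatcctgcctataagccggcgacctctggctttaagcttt
Ctsa: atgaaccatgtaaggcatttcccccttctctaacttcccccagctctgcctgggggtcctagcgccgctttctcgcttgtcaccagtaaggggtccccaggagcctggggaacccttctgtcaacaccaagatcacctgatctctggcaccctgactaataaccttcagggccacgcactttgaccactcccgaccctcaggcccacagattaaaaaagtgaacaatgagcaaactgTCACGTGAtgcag
Gla: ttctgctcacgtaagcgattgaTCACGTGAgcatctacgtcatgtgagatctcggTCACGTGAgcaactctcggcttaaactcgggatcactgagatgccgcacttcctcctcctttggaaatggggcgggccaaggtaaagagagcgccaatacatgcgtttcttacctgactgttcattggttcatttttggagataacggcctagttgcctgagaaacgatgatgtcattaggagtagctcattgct
Mcoln1: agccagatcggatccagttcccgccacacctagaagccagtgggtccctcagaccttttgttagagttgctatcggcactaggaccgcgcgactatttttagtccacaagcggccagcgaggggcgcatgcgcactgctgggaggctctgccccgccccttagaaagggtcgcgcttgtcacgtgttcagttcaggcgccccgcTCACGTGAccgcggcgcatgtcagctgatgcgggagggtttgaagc
The match begins 99 bases before the start in Ctsd, 13 in Ctsa and 46 in Mcoln1, while Gla holds 2 matches, 228 and 195 bases before it. The shorter core CACGTG, which the palindrome contains, was in 7 of these 30 lysosomal promoters (23.3%), in 1 of the 8 promoters of the genes followed here and in 6.02% of all promoters. For 2 other motifs, TGANTCA (AP-1, 6.75% of all promoters) matched Cd68 and Trem2, and GAGGAAGT (PU.1, 2.44%) matched Spp1. A match describes letters in this window and says nothing of binding.

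Lyz2, the macrophage lysozyme, has a near-identical neighbour, Lyz1, the lysozyme of Paneth cells, and short reads can be split between them. Their coding sequences of 447 bases differ at 22 bases (95.1% identity), with a longest shared run of 118 bases, so reads can be placed by sequence only where they cross a difference. The first 150 coding bases of each are shown, spliced from chr10:117280792-117282242 (Lyz2) and chr10:117291180-117292838 (Lyz1) on the minus strand of GRCm38, with the 14 differing bases in this stretch in capitals.
Lyz2: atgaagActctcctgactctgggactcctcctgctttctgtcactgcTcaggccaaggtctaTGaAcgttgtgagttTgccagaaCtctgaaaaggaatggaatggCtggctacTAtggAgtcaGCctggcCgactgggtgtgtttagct
Lyz1: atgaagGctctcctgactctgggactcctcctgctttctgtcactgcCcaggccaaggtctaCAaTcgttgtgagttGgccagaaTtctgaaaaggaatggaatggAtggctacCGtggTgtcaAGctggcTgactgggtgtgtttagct
Lyz1 made up 1.59 to 12.7% of the pair's TPM in RAW264.7 libraries and 0.243 to 0.932% in WT liver libraries. Of the other genes, only Cd9 shares exon sequence with an opposite-strand gene in GENCODE vM21, 218 bases with the noncoding Gm26728, which had no row in the tables.

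The first question was whether the HMGB1 and IL1β complex changed these genes in RAW264.7 cells. None of the 10 passed the test, and none had groups whose libraries did not overlap. The background was low: 0.18% of 10556 genes tested were called (adjusted p under 0.05, limma on log2(TPM + 1)), 16 higher and 3 lower, and 13.5% had groups without overlap. The fitted log2 fold changes of the 10 ran between -0.54 and 0.13 with a median of -0.23, 3 above 0 and 7 below, beside a median of -0.09 over all genes tested. Adjusted p-values ran from 0.534 to 0.97.

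Among the receptor and its programme, Trem2 was at 156, 77.4 and 109 TPM in complex-treated cells, against 98.1, 264 and 159 TPM in BSA cells. The groups overlapped, with the highest library in the BSA group, and the fitted log2 fold change was -0.54 (SE 0.403, adjusted p = 0.755), with a 95% interval for the fold of 0.355 to 1.32 on the TPM + 1 scale. Without BSA replicate 1 the log2 fold change was -0.90, and without BSA replicate 2 it was -0.19. Gpnmb, a glycoprotein of phagosomes and lysosomes, was at 330.3, 289 and 255 TPM in complex-treated cells, against 261, 423 and 332 TPM in BSA cells. Its values overlapped too, and the interval for the fold was 0.625 to 1.22.

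Lgals3, the lectin galectin-3 that binds damaged lysosomes, was at 157, 109 and 222 TPM in complex-treated cells, against 149, 230.4 and 236 TPM in BSA cells. Spp1, the secreted phosphoprotein osteopontin, had the highest level of the 10 genes in both groups at 976, 789.9 and 971 TPM in complex-treated cells, against 731, 1100 and 858 TPM in BSA cells. The complex libraries of Spp1 lay within the range of the BSA libraries, and its fold interval, 0.779 to 1.35, was the narrowest of the 10 on the log scale. Cd9, a tetraspanin of the plasma membrane and of exosomes, had the lowest level at 20.6, 29.1 and 10 TPM in complex-treated cells, against 22.9, 26 and 18.4 TPM in BSA cells.

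Of the lysosomal genes, Ctsd, the aspartic protease cathepsin D, was at 382, 308 and 284 TPM in complex-treated cells, against 366, 509.7 and 475 TPM in BSA cells. The complex libraries were below the BSA libraries except for the highest of them, which exceeded the lowest BSA library. Its log2 fold change of -0.47 (SE 0.179) had the smallest unadjusted p of the 10 genes, 0.0342, and an adjusted p of 0.534 in the limma test. Cd68, a lysosomal membrane glycoprotein used as a macrophage marker, was at 306, 333 and 333 TPM in complex-treated cells, against 325, 478 and 534 TPM in BSA cells, again with overlap at the lowest BSA library. Its log2 fold change was -0.43 (SE 0.197, adjusted p = 0.595).

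Lyz2 was at 807, 516 and 569.7 TPM in complex-treated cells, against 432, 633 and 773 TPM in BSA cells, with the highest library in the complex group and the lowest in the BSA group. For lipid uptake, Lpl, the lipase that frees fatty acids from lipoproteins, was at 66.4, 28.8 and 29.6 TPM in complex-treated cells, against 41, 57.7 and 33.9 TPM in BSA cells. Msr1, the class A scavenger receptor that takes up modified low-density lipoprotein, was at 166, 104 and 90.8 TPM in complex-treated cells, against 102, 134 and 88.5 TPM in BSA cells. Both groups overlapped for these genes, and the fold intervals were 0.688 to 1.57 for Lyz2, 0.465 to 1.72 for Lpl and 0.688 to 1.73 for Msr1. None of the 10 passed when any 1 of the 6 libraries was left out, and the log2 fold changes then ran between -0.37 and -0.02 for Gpnmb, -0.62 and -0.10 for Lgals3, -0.61 and -0.37 for Ctsd and -0.64 and -0.28 for Cd68.

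**Figure D1:**
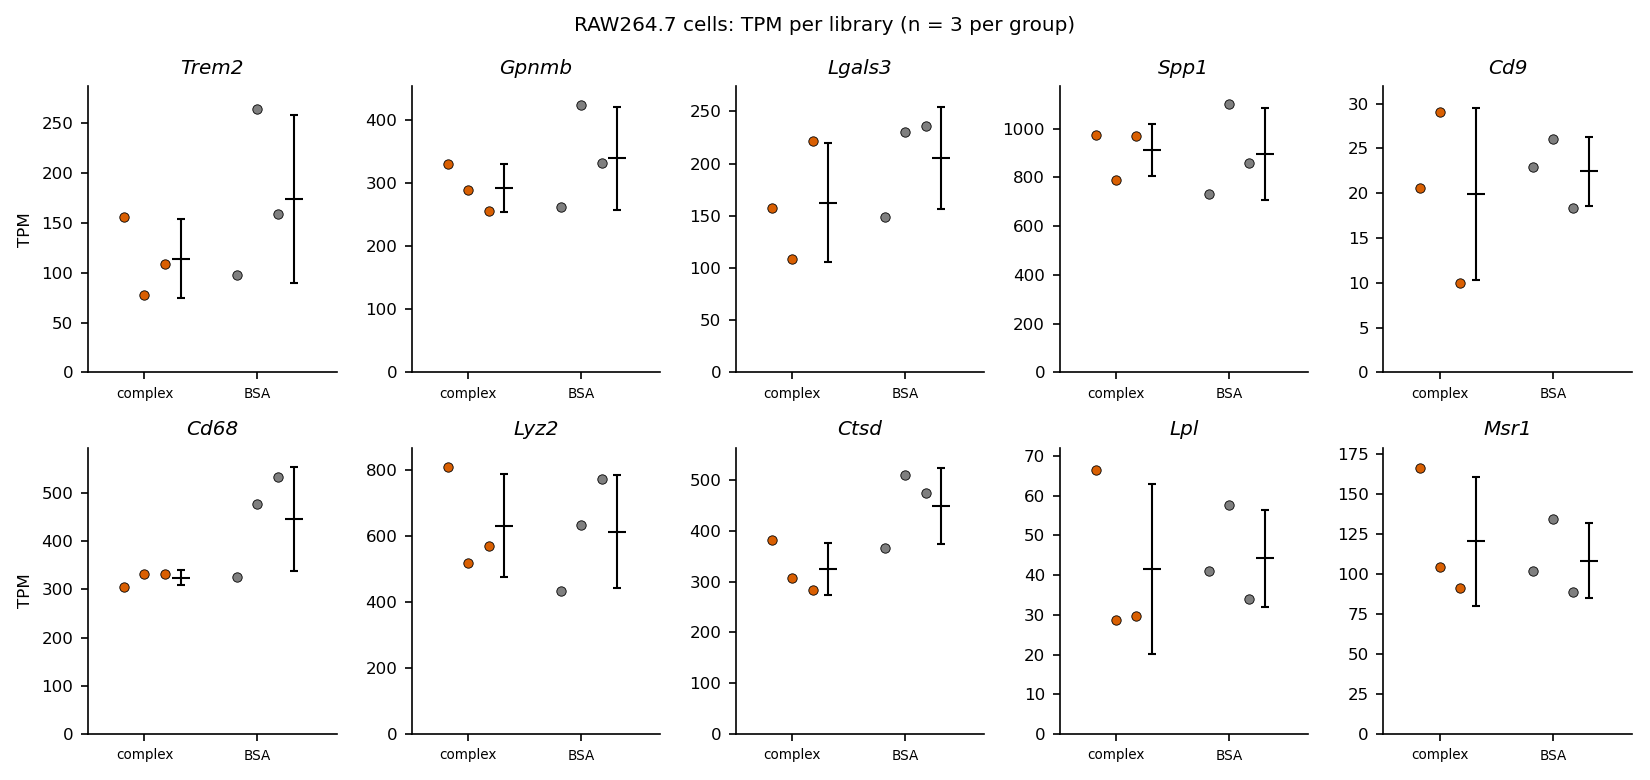
TPM of each of the 10 genes in every RAW264.7 library (points, linear axis from 0), complex-treated cells left and BSA cells right, with the group mean and SD (bar, n = 3 each). The groups overlap in all 10 panels, and Trem2, Gpnmb, Lgals3, Cd68 and Ctsd each have 2 BSA libraries above every complex library.

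The levels of the 10 genes in RAW264.7 cells stood in nearly the same order in both groups. In complex-treated cells Spp1 (912 ± 106 TPM, SD, n = 3) and Lyz2 (631 ± 155 TPM) came first, with overlapping libraries, followed by Ctsd, Cd68 and Gpnmb at 325, 324 and 292 TPM. Lgals3, Msr1 and Trem2 formed the next overlapping run at 163, 120.3 and 114 TPM, and Lpl and Cd9 came last at 41.6 and 19.9 TPM. BSA cells had the same order except that Trem2 (174 ± 83.9 TPM) stood above Msr1 (108 ± 23.3 TPM), a pair whose libraries overlapped.

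No gene of the lists around these 10 passed limma in RAW264.7 cells, where 1 of the 10 and 877 of all genes had an unadjusted p under 0.05. Among 30 other genes of the lipid-associated programme, 25 were tested, with a median log2 fold change of -0.11, and Mmp12, Axl, Pparg and Timp2 were listed at 0 in all 6 libraries. All 12 TREM2 signalling genes were tested (median -0.24), as were 37 of 38 lysosomal genes (median -0.23), 11 of 19 scavenger receptor and lipoprotein uptake genes (median -0.12) and 11 of 15 general macrophage markers (median -0.06). At an unadjusted p under 0.05, these 5 lists held 2, 1, 3, 2 and 3 genes in the order given. Summed general macrophage markers were at 565 to 686 TPM in complex-treated cells and 498 to 689.8 TPM in BSA cells.

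The other lysosomal genes with the palindrome can be set beside Ctsd. Ctsa, the protease that protects other lysosomal enzymes, was at 527, 469.7 and 522 TPM in complex-treated cells, against 701, 791 and 788 TPM in BSA cells. The groups did not overlap, as in 13.5% of all genes tested in RAW264.7 cells. The log2 fold change was -0.59 (SE 0.109), with an unadjusted p of 9.5e-04 and an adjusted p of 0.127 in limma. Ctsa shares exon sequence with a gene on the opposite strand, and the part of that gene in the Ctsa values was not tested. Mcoln1 was at 26.3, 27.9 and 26.1 TPM in complex-treated cells, against 47.6, 53.9 and 39 TPM in BSA cells, also without overlap (log2 fold change -0.77, SE 0.255, adjusted p = 0.451). Gla, at 3.11, 9.76 and 0 TPM in complex-treated cells and 2.82, 3.15 and 0 TPM in BSA cells, overlapped (log2 fold change 0.49, SE 1.04). No test was made of these 4 genes as a set.

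The second question was whether the 10 genes differed between alcohol and control diet in WT liver, where diet cannot be told apart from sex-linked transcripts. Lgals3 passed, at an adjusted p close to the threshold, and the other 8 genes tested did not; Gpnmb was below the level needed for testing, a mean of 1 TPM in either group. Of all 9744 genes tested, 31.2% were called, 13.3% higher and 17.9% lower, so the share of these genes called, 1 of 9, lies near the share called higher. All 9 fitted changes were above 0 (0.11 to 1.25 on the log2 scale), with a median of 0.34 beside -0.05 over all genes tested, of which 45.2% were above 0. In bulk liver a larger number of cells of a type and more RNA per cell cannot be told apart.

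Lgals3 was at 3.1, 5.64, 4.09 and 4.59 TPM in WT alcohol livers, against 2.81, 3.43, 2.39 and 2.53 TPM in WT control livers. The 3 highest libraries were alcohol livers, and the lowest alcohol liver lay inside the control range. Its log2 fold change was 0.48 (SE 0.16, limma adjusted p = 0.0418), a fold of 1.4 on the TPM + 1 scale with a 95% interval of 1.09 to 1.79. The call was lost in 6 of the 8 fits that left out 1 library and was kept without alcohol replicate 1 and without control replicate 2, with log2 fold changes from 0.37 to 0.62 over all alternatives.

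Spp1 was at 129, 56.6, 40.0 and 136 TPM in WT alcohol livers, against 33, 69.8, 23.6 and 20.9 TPM in WT control livers. Alcohol replicates 1 and 4 were above every control liver, and the other two alcohol livers lay below control replicate 2. The log2 fold change of 1.25 (SE 0.445), the highest of the 9, had an adjusted p of 0.0544 in limma. When 1 library was left out it ran from 1.00 to 1.61, with an adjusted p of 0.0178 without control replicate 2, 0.0236 without alcohol replicate 3 and 0.0571 to 0.147 in the other 6 fits. Spp1 is also made by bile duct cells, and the other 8 genes of a bile duct list summed to 6.04 to 15.5 TPM in alcohol livers and 7.47 to 13.7 TPM in control livers; their part in the Spp1 values was not tested.

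Trem2 was at 0.837, 1.17, 0.864 and 1.39 TPM in WT alcohol livers, against 0.258, 1.59, 0.767 and 0.197 TPM in WT control livers. The alcohol livers lay inside the control range, whose highest value, control replicate 2, was above them all. The log2 fold change was 0.34 (SE 0.223, adjusted p = 0.269), and with pseudocounts of 0.1 and 0.01 it was 0.87 and 1.04 (adjusted p 0.207 and 0.195). Without control replicate 2 it was 0.57 with an adjusted p of 0.0304, without control replicate 1 it was 0.22 and without control replicate 4 it was 0.20, and the adjusted p was 0.283 to 0.515 in the 6 fits without another library. Without alcohol replicate 4 Trem2 was below the filter. Gpnmb was at 0.505, 0.181, 0.263 and 0.296 TPM in WT alcohol livers, against 0.154, 0.112, 0.0945 and 0.105 TPM in WT control livers. Every alcohol liver was above every control liver, as in 30.8% of the genes tested in this comparison, but at levels below the filter, and the adjusted p was 0.0539 when no filter was used. Cd9 was at 8.87, 6.61, 6.49 and 9.94 TPM in WT alcohol livers, against 5.4, 8.06, 6.75 and 5.73 TPM in WT control livers, with overlap and an adjusted p of 0.265.

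The lysosomal genes did not pass in WT liver. Cd68 was at 9.51, 23.9, 13.1 and 19.8 TPM in WT alcohol livers, against 12, 12.1, 13.4 and 12.4 TPM in WT control livers. The alcohol livers held both the highest and the lowest value, and their SD of 6.47 TPM compared with 0.639 TPM in control livers. Lyz2 was at 43.8, 84.8, 60.9 and 67.5 TPM in WT alcohol livers, against 47.8, 55.1, 45.1 and 41.7 TPM in WT control livers. The 3 highest libraries were alcohol livers, and the log2 fold change of 0.40 (SE 0.184) had an adjusted p of 0.123. It was 0.57 without alcohol replicate 1 (adjusted p = 0.0298) and 0.25 without alcohol replicate 2 (adjusted p = 0.297), and the adjusted p was 0.101 to 0.297 in the 7 fits that left out a library other than alcohol replicate 1. Ctsd, the gene with the highest level of the 10 in liver, was at 415, 451, 385 and 434 TPM in WT alcohol livers, against 327, 442, 404 and 389 TPM in WT control livers. Its fold interval of 0.904 to 1.3 was the narrowest of the 9.

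For lipid uptake, Lpl was at 2.31, 2.53, 1.18 and 2.65 TPM in WT alcohol livers, against 1.87, 1.8, 1.7 and 1.04 TPM in WT control livers. The 3 highest values were alcohol livers, and the log2 fold change was 0.27 (SE 0.181, adjusted p = 0.285). Msr1 was at 2.74, 6.65, 3.94 and 3.53 TPM in WT alcohol livers, against 2.71, 1.98, 2.08 and 5.06 TPM in WT control livers. Only control replicate 4 overlapped the alcohol livers, and the log2 fold change of 0.41 (SE 0.262, adjusted p = 0.261) was 0.63 with an adjusted p of 0.0493 without that library. It was 0.21 without alcohol replicate 2, and the adjusted p was 0.178 to 0.56 in the 7 fits without another library. Cd9, Cd68, Ctsd and Lpl did not pass when any 1 library was left out, with log2 fold changes of 0.15 to 0.35 for Cd9, 0.11 to 0.52 for Cd68, 0.03 to 0.18 for Ctsd and 0.16 to 0.44 for Lpl.

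**Figure D2:**
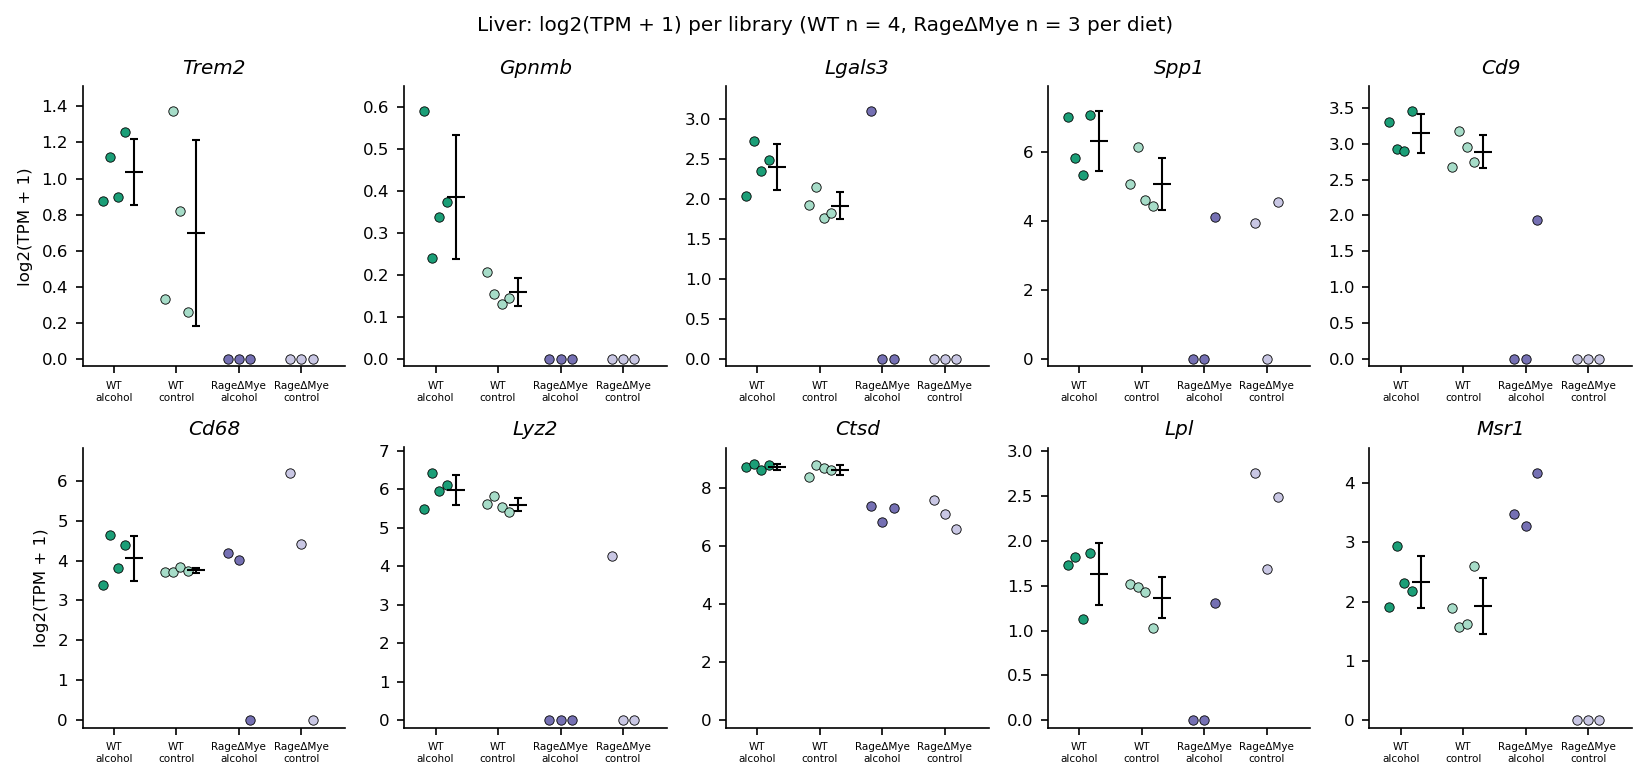
log2(TPM + 1) of each of the 10 genes in every liver library (points), with WT alcohol, WT control, RageΔMye alcohol and RageΔMye control from left to right, and the mean and SD for the WT groups (bars, n = 4 each). Trem2 and Gpnmb are at 0 in all 6 RageΔMye libraries, and Ctsd is above 90 TPM in all 14 liver libraries.

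The order of levels in WT liver differed from that in RAW264.7 cells, which is given as a description because the tables were not fitted together. Ctsd came first at 421 ± 28.3 TPM in alcohol livers and 391 ± 47.7 TPM in control livers (SD, n = 4 each). Spp1 and Lyz2 came next. Spp1 was at 90.4 TPM in alcohol livers and 36.8 TPM in control livers, and Lyz2 at 64.2 TPM in alcohol livers and 47.5 TPM in control livers. Spp1 was thus the higher in alcohol livers and Lyz2 in control livers, with libraries of the 2 genes overlapping in both groups. Cd68 and Cd9 were between 5 and 25 TPM in each WT library, and Lgals3, Msr1, Lpl, Trem2 and Gpnmb were below 7 TPM. Trem2 (1.07 ± 0.265 TPM in alcohol livers and 0.702 ± 0.643 TPM in control livers) and Gpnmb (0.311 ± 0.138 TPM in alcohol livers and 0.116 ± 0.0262 TPM in control livers) were the lowest of the 10 in WT liver.

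Across the 8 WT liver libraries, the tested genes whose log2 levels were most like those of Trem2 were Maged2 (Pearson r = 0.990), Hgfac (0.970), Rnf167 (0.966), Lsm4 (0.962) and Sp140 (0.959), out of 9743 compared. For Gpnmb they were A2m (0.968), Cyp2g1 (0.961), Pdgfra (0.950), Crispld2 (0.949) and Ifitm1 (0.932), out of 9744. These points share diet group and library, and none of the 10 genes was among the 5 most like either. Within the 10 genes, r with Trem2 ran from -0.14 for Msr1 to 0.81 for Ctsd, with Cd9 at 0.76 and Spp1 at 0.69. With Gpnmb it ran from -0.18 for Cd68 to 0.76 for Spp1, and between Trem2 and Gpnmb it was 0.22.

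The wider lipid-associated programme had more calls in WT liver than the 10 genes. Of 30 other genes of the programme, 29 were tested, 12 rose and none fell (41.4% called, beside 31.2% of all genes), with a median log2 fold change of 0.33. Atp6v0d2, a subunit of the lysosomal proton pump, rose to 4.16, 4.31, 4.65 and 9.66 TPM in WT alcohol livers, against 0.497, 1.38, 0.781 and 0.72 TPM in WT control livers (log2 fold change 1.81, SE 0.236, adjusted p = 4.7e-04). Cd36, the fatty acid translocase, rose to 24.8, 36.4, 22 and 29.2 TPM in WT alcohol livers, against 4.32, 5.81, 5.07 and 13.5 TPM in WT control livers (log2 fold change 1.93, SE 0.288, adjusted p = 0.00105). The groups did not overlap for either gene, as in 30.8% of all genes tested, and genes were named by smallest adjusted p. Fabp4, a fatty acid chaperone, and Itgax, the integrin CD11c, also rose, by log2 fold changes of 1.37 (adjusted p = 0.0033) and 0.71 (adjusted p = 0.00102) in limma. Several of these genes, Cd36 and the lipid droplet protein gene Plin2 among them, are also made by hepatocytes. The count of 12 was 7 without the filter on low values and 3 in a joint fit of all 14 liver libraries.

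Of 12 TREM2 signalling genes, 9 were tested, 5 rose and none fell (55.6% called, beside 31.2% of all genes). The median log2 fold change was 0.46. Lat2, an adaptor of immune receptor signalling, rose to 1.3, 1.01, 1.27 and 1.17 TPM in WT alcohol livers, against 0.514, 0.662, 0.436 and 0.317 TPM in WT control livers (log2 fold change 0.56, SE 0.106, adjusted p = 0.00348). Grb2, a general signalling adaptor, rose to 52.7, 56.2, 57.9 and 63.6 TPM in WT alcohol livers, against 39.9, 36.1, 44.2 and 47.2 TPM in WT control livers (log2 fold change 0.46, SE 0.118, adjusted p = 0.0155). Both were without overlap, as were 30.8% of all genes tested, and genes were named by smallest adjusted p. The count of 5 was 3 without alcohol replicate 3, 2 with a filter at 5 TPM and 0 in the joint fit of all 14 livers.

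The lysosomal list split in direction. Of 38 genes 37 were tested, 9 rose and 3 fell (32.4% called, beside 31.2% of all genes), with a median log2 fold change of 0.07 (2 called in the joint fit of all 14 livers). Ctsl, the cysteine protease cathepsin L, rose to 272, 285, 306 and 260.3 TPM in WT alcohol livers, against 178, 164, 155 and 189.9 TPM in WT control livers (log2 fold change 0.71, SE 0.107, adjusted p = 0.00112). Lgmn, the asparaginyl endopeptidase legumain, rose by 0.82 on the log2 scale (adjusted p = 0.00178). Tfeb, a regulator of lysosomal genes named above, fell by 0.67 on the log2 scale (limma adjusted p = 0.00683). Its means were 0.557 TPM in alcohol livers and 1.46 TPM in control livers. Tfe3, named with Tfeb above, rose by 0.48 on the log2 scale and was also called. Of the 4 genes with the palindrome none passed in WT liver: Ctsd had a log2 fold change of 0.11 (adjusted p = 0.49), Ctsa of -0.15 (0.375), Gla of 0.12 (0.428) and Mcoln1 of -0.09 (0.64).

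Of 19 genes of scavenger receptors and lipoprotein uptake 17 were tested, 4 rose and 4 fell (47.1% called, beside 31.2% of all genes). The median log2 fold change was -0.01. Lipc, hepatic lipase, and Cxcl16, a chemokine that also binds oxidised lipoprotein, rose by log2 fold changes of 0.64 (adjusted p = 0.00169) and 0.60 (adjusted p = 0.00682). Lipg, endothelial lipase, fell by 1.36 on the log2 scale, to a mean of 3.16 TPM in alcohol livers, against 10.1 TPM in control livers (adjusted p = 0.00113). The count of 8 was 5 without control replicate 3 and 1 in the joint fit of all 14 livers.

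Markers of several cell types differed with diet in WT liver as well, where 31.2% of all genes tested were called, 13.3% higher and 17.9% lower. Of 15 general macrophage markers 14 were tested, 5 rose (3 with a filter at 5 TPM) and none fell, and their summed level was 217 to 276 TPM in alcohol livers and 138 to 159 TPM in control livers. The highest fold among them was that of Cd14, the lipopolysaccharide co-receptor, at 104, 55.4, 31.2 and 48.3 TPM in WT alcohol livers, against 7.77, 7.52, 5.64 and 11 TPM in WT control livers (log2 fold change 2.66, SE 0.312, adjusted p = 2.6e-04). Without Cd14 the sum was 132 to 221 TPM in alcohol livers and 132 to 148 TPM in control livers, which overlap. Per 100 TPM of the full marker sum, Lgals3 was at 1.31 to 2.04 TPM in alcohol livers and 1.6 to 2.22 TPM in control livers, and Lyz2 was at 18.6 to 30.7 TPM in alcohol livers and 26.3 to 35.7 TPM in control livers. The full sum includes Cd14, so the rise in Cd14 lowers these ratios in alcohol livers. Ratios to the sum without Cd14 were not made, and no change per macrophage RNA can be read from them.

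Of 10 neutrophil markers 5 were tested and 4 rose, among them Ngp (log2 fold change 1.55, adjusted p = 0.0023) and S100a9 (1.19, adjusted p = 0.00998), and their summed level was 103 to 154 TPM in alcohol livers and 29.7 to 76.3 TPM in control livers. Of 10 monocyte markers 5 were tested and 3 rose, among them Plac8 (log2 fold change 1.30, adjusted p = 0.00157), with sums of 531 to 596 TPM in alcohol livers and 430.4 to 463 TPM in control livers. Most of that sum was F10, the coagulation factor X gene that hepatocytes make, at 554, 513, 553 and 495 TPM in WT alcohol livers, against 451, 434, 421 and 417 TPM in WT control livers. F10 was also 1 of the 3 calls (log2 fold change 0.29, limma adjusted p = 0.0383), and lost it in 9 of 16 alternatives. Without F10 the sum was 27.1 to 41.9 TPM in alcohol livers and 12.1 to 18.8 TPM in control livers. Of 10 Kupffer cell markers, all tested, 1 rose and 2 fell, with sums of 226 to 416 TPM in alcohol livers and 404 to 491 TPM in control livers. The fall in C6, a complement component that hepatocytes also make, to a mean of 8.2 TPM in alcohol livers, against 191 TPM in control livers, was the largest there (log2 fold change -4.39, adjusted p = 2.3e-08). Without C6 the Kupffer sum was 219 to 407 TPM in alcohol livers and 235 to 259.7 TPM in control livers, which overlap. These sums without 1 gene were chosen after the values were seen.

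Of 10 T, NK and B cell markers 6 were tested and 2 rose, the granzyme genes Gzma (log2 fold change 1.14, limma adjusted p = 0.00304) and Gzmb (0.62, adjusted p = 0.00111). Their list summed to 6.9 to 11.6 TPM in alcohol livers and 3.15 to 5.5 TPM in control livers, and 5 passed without alcohol replicate 2. Of 9 hepatocyte markers 2 rose, among them Tat, a tyrosine-degrading enzyme (log2 fold change 0.82, adjusted p = 0.0217). That count was 0 without alcohol replicate 2 or control replicate 1, 1 without alcohol replicate 1, 3 or 4 or control replicate 2, and 0 without the filter on low values. Of 14 housekeeping genes Actb (0.85, adjusted p = 0.00877) and Tfrc (0.82, adjusted p = 0.00701) rose and Hprt (-0.44, adjusted p = 0.0107) fell. Stellate cell markers had 5 of 8 called higher (1 without control replicate 1, 2 without alcohol replicate 1, alcohol replicate 4 or control replicate 3, and 3 without control replicate 4). Sinusoidal endothelial markers had 2 of 9 called higher, with 8 without control replicate 4, 5 without alcohol replicate 1 and 1 without control replicate 1 or 3. In a joint fit of all 14 liver libraries, with 1 spread for both genotypes, the calls in WT liver numbered 0 for general macrophage, monocyte and stellate markers 1 each for neutrophil, Kupffer cell, endothelial and housekeeping genes, 2 for T, NK and B cell markers and 0 for hepatocyte markers. Every marker in these lists was above 0 in at least 1 WT library, and the part of any cell type in the values of the 10 genes was not tested.

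**Figure D3:**
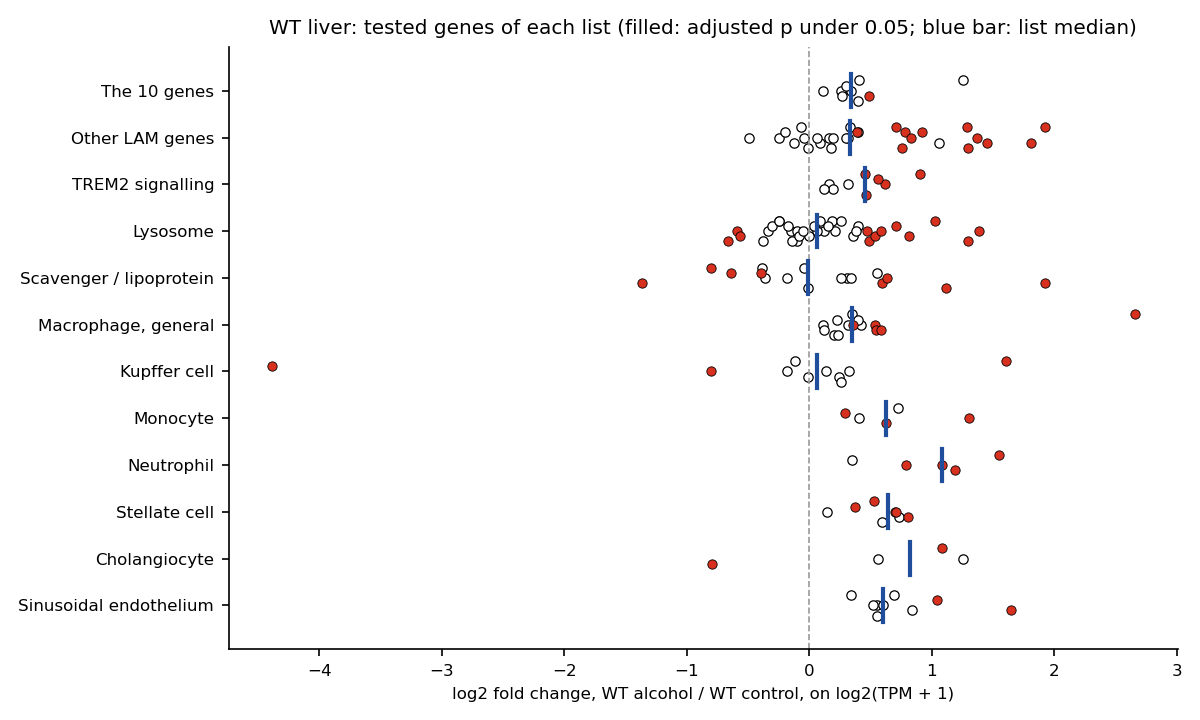
log2 fold change of WT alcohol over WT control livers (horizontal axis, on log2(TPM + 1)) for each tested gene of 12 lists (rows), filled where the adjusted p is under 0.05, with the list median as a blue bar. The 10 genes have 1 filled point of 9 and a median of 0.34, and the lysosomal list has filled points on both sides of 0.

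The same diet comparison was then made in livers labelled RageΔMye. None of the 7 genes that could be tested passed, and 0.0374% of 10686 genes were called, 2 higher and 2 lower. At an unadjusted p under 0.05 in limma, 747 genes and 2 of the 10, Msr1 and Lpl, would have passed. Trem2 and Gpnmb were listed at 0 in all 6 libraries, and Cd9 was below the filter, at 0, 0 and 2.81 TPM in alcohol livers and 0 in all control livers. As 1 to 3 of 14 housekeeping genes were also listed at 0 in these libraries, a value of 0 gives no level.

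Msr1 was at 10.1, 8.71 and 17 TPM in RageΔMye alcohol livers and was listed at 0 in all 3 RageΔMye control livers. The most frequent TPM above 0 was 17.3, 15.1 and 14.6 in the same alcohol libraries. Lpl was at 0, 0 and 1.47 TPM in RageΔMye alcohol livers, against 5.78, 2.22 and 4.63 TPM in RageΔMye control livers. These were the 2 genes of the 10 whose groups did not overlap, which held for 11.7% of the genes tested, and neither passed (limma adjusted p = 0.173 for Msr1 and 0.672 for Lpl). In a joint fit of all 14 liver libraries, where 1 spread served both genotypes, both passed (adjusted p = 3.6e-05 and 0.0151), and they did not with library weights per genotype.

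The other genes of the 10 were sparse in RageΔMye liver. Lgals3 was at 7.56, 0 and 0 TPM in alcohol livers and at 0 in all 3 control livers. Spp1 was at 0, 0 and 16.4 TPM in RageΔMye alcohol livers, against 14.3, 0 and 22.8 TPM in RageΔMye control livers. Cd68 was at 17.3, 15.1 and 0 TPM in RageΔMye alcohol livers, against 72.4, 20.5 and 0 TPM in RageΔMye control livers. Lyz2 was listed at 0 in all 3 alcohol livers and was at 18.1, 0 and 0 TPM in control livers. Cd68 at 17.3, 15.1 and 20.5 TPM and Lyz2 at 18.1 TPM equalled the most frequent TPM above 0 of their library. Ctsd alone was above 0 in every library, at 163, 112 and 158 TPM in RageΔMye alcohol livers, against 189, 135 and 95 TPM in RageΔMye control livers, which overlap (log2 fold change 0.08, SE 0.348, fold interval 0.606 to 1.86).

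No gene of the surrounding lists passed limma in RageΔMye liver. The tested genes numbered 23 of 30 in the wider lipid-associated programme (median log2 fold change -0.20), 35 of 38 in the lysosomal list (median -0.11) and 9 of 12 in TREM2 signalling (median -0.78), beside a median of 0.01 over all genes tested. At an unadjusted p under 0.05 they held 4, 2 and 0 genes in that order. Fth1, the ferritin heavy chain that stores iron, was at 1739, 1961 and 1217 TPM in RageΔMye alcohol livers, against 697, 513 and 602 TPM in RageΔMye control livers, without overlap (adjusted p = 0.112). Plin2 went the other way, with means of 74.5 TPM in RageΔMye alcohol livers and 338 TPM in RageΔMye control livers. Its groups did not overlap either, which held for 11.7% of all genes tested (log2 fold change -2.11, limma adjusted p = 0.138). Summed general macrophage markers were at 111 to 331 TPM in alcohol livers and 219 to 291 TPM in control livers.

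**Figure D4:**
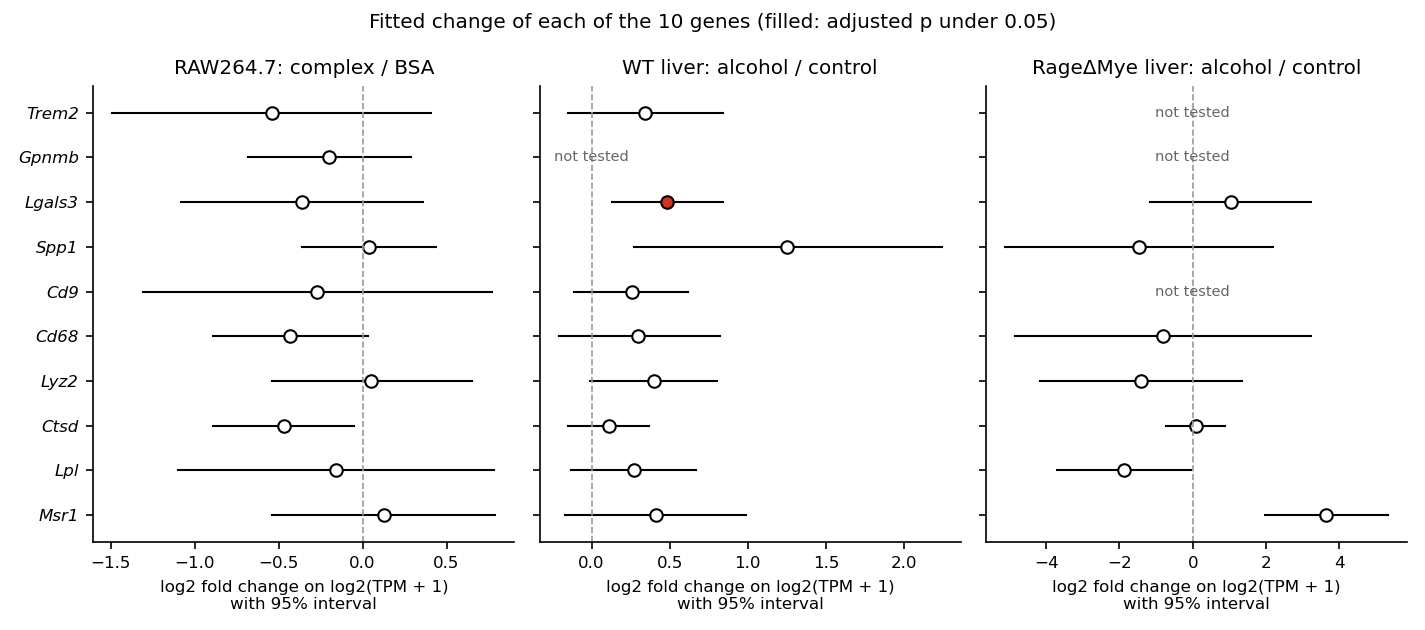
Fitted log2 fold change (point) and 95% interval (line) of each of the 10 genes on log2(TPM + 1), for complex over BSA in RAW264.7 cells, alcohol over control in WT liver and alcohol over control in RageΔMye liver; the 3 panels have different horizontal scales. Lgals3 in WT liver is the 1 filled point (adjusted p under 0.05), and the intervals in RageΔMye liver are wider than in WT liver for each gene tested in both.

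Whether the alcohol effect differed by genotype was tested in all 14 liver libraries with weights that let the genotypes differ in spread. The genotypes also differed in the kind of library, so a genotype difference cannot be told apart from it. None of the 9 genes tested passed, beside 0.506% of 12066 genes called. The largest in size was that of Msr1, the 1 gene of the 9 with an unadjusted p under 0.05, whose alcohol effect was 3.23 higher on the log2 scale in RageΔMye than in WT liver (SE 1.47, unadjusted p = 0.0455, adjusted p = 0.568). For Lgals3, called in WT liver, the difference was 0.55 with an SE of 1.01 (adjusted p = 0.933). Without the weights, 463 genes were called, Msr1 and Lpl among them.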

How the data were processed

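RNA was sequenced from 14 total liver and 6 RAW264.7 libraries made with a stranded mRNA kit, per the labels' protocols. The authors deposited 2 tables with 1 column per library. No header names a unit, and TPM is inferred for what the authors deposited, because values are not whole and each column sums to nearly the same total. The submitters' processing notes name the build mm10. Which aligner, counter, strand setting and annotation they used is not given in the sources used here. TPM keeps no read number, so the depth behind a value is unknown. Of 24972 rows in each table, 4 with a repeated symbol were left out.

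log2(TPM + 1) was tested with limma 3.58.1 (intensity trend) in R 4.3.3, for genes that averaged 1 TPM or more in either group, with Benjamini-Hochberg adjustment over all genes tested and a threshold of 0.05. Each comparison used only its own groups, because the spread differed between genotypes. The difference of the alcohol effect used all 14 liver libraries, with weights per genotype. A fold change on this scale understates the change of low genes. Nothing in the labels states separate animals or cultures, so p-values measure the spread between these samples, which may be technical. The 10 genes, the gene lists and the naming rule were chosen with earlier results of these data known. Named from each list were up to 4 genes that passed, or at most 2 others as values. Values of 2 list genes that the rule names are not reported here, though the counts include them. Genes that share exons with the opposite strand came from GENCODE vM21, to which 24537 of 24968 symbols were matched (73 through RefSeq synonyms). Promoters came from RefSeq. The test was also run on simulated data with known changes. It recovered few of them for RAW264.7 and none for RageΔMye liver, so a gene not called there is not shown to be unchanged. Every comparison was refitted with other pseudocounts, filters, scaling and sample sets.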

Additional observations from a re-analysis of the deposited data

Results flagged for a closer look

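In 6 groups of 4 WT livers, 1 library stood far from the other 3, by the gap to its neighbour over the range of the group. Atp6v0d2 was at 9.66 TPM in alcohol replicate 4, against 4.16 to 4.65 TPM in the other alcohol livers. Cfd, the adipocyte protease adipsin, was at 2.77 TPM in alcohol replicate 3, against 0 to 0.0955 TPM. Cd36 was at 13.5 TPM in control replicate 4, against 4.32 to 5.81 TPM in the other control livers. In the same library the endothelial genes Lyve1 and Pecam1 were at 6.89 and 14.5 TPM, against 2.38 to 2.92 and 5.38 to 6.54 TPM in the other control livers. Dcn, the matrix proteoglycan decorin, was at 33.7 TPM in control replicate 1, against 48.7 to 50.0 TPM. Chance flags about 1 in 20 groups, and 108 groups were looked at. None of the 10 genes was among them.

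The difference in Xist between alcohol and control livers was 4.79 lower on the log2 scale in RageΔMye than in WT liver (difference -4.79, limma adjusted p = 0.0175). Xist and Y-linked transcripts separated the WT diet groups, so an effect of alcohol on Xist cannot be told apart from sex. Xist was above 17 TPM in the WT alcohol livers and at 3.1 TPM or less in all other liver libraries.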

How the results depend on the processing

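Among the 10 genes, the count called in WT liver was 1, and it was 0 without the filter on low values, 0 with a filter at 5 TPM, 0 in a joint fit of 14 livers, 2 in that fit with library weights (Lgals3 and Spp1), and between 0 and 3 when 1 library was left out. Lgals3 had an adjusted p between 0.0213 and 1 over 15 alternatives. In RageΔMye liver the joint fit called 2 of the 10 (Msr1 and Lpl), as did the difference between genotypes without weights (2). The count over all genes in WT liver, 3040, was 1879 with a filter at 5 TPM and 336 in the joint fit. For RAW264.7 the count of 19 was 4 without genes overlapping the opposite strand and between 2 and 9 without 1 library. In RageΔMye liver the count of 4 was 0 with a pseudocount of 0.01, 9 with a filter at 5 TPM, 7 after quantile normalization, 657 in the joint fit, 50 in the weighted joint fit and between 0 and 5 without 1 library. For the difference between genotypes the count of 61 was 128 without the filter, 463 without weights and 39 without genes overlapping the opposite strand. The causes of these moves were not tested, beyond the fewer samples or genes of some fits. In RAW264.7 and RageΔMye liver, deviations of same-number samples correlated at -0.025 to 0.018, and those of different numbers at -0.037 to 0.038. In libraries this noisy, such values do not show whether samples were paired. A replicate block gave 0 calls in RAW264.7 and 0 in RageΔMye liver.

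Directions that turned were all of genes that did not pass. Without 1 library, log2 fold changes in RAW264.7 ran between -0.10 and 0.20 for Spp1, -0.59 and 0.13 for Cd9, -0.18 and 0.24 for Lyz2, -0.55 and 0.04 for Lpl, -0.13 and 0.30 for Msr1 and -0.44 and 0.82 for Lyz1; in RageΔMye liver they ran between -2.58 and 0.56 for Cd68 and -0.16 and 0.33 for Ctsd. Xist in RageΔMye liver was 0.08 and 1.03 with pseudocounts of 0.1 and 0.01, against -0.26 with 1. Of 854 values for genes named in WT liver none turned. Depth is unknown in TPM, and intervals are wide in the RageΔMye and RAW264.7 libraries.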
